A study of Mus musculus with 6 samples.

Results

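The ROR and COUP-TF orphan nuclear receptors were read as Rora, Rorb, Nr2f1, Nr2f2 and Nr2f6, the 5 member genes, in the otic vesicle of the mouse embryo. Members were every probe set that the array's annotation assigns to 1 of these symbols alone. There were 21 of them among 45037 probe sets without controls: 9 for Rora, 3 for Rorb, 1 for Nr2f1, 6 for Nr2f2 and 2 for Nr2f6. The genes were chosen by their differences between the groups of these arrays, which were known beforehand. Those differences are therefore described without a test.

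Nuclear receptors are transcription factors with a zinc finger DNA-binding domain and a ligand-binding domain, and an orphan receptor is one that was found before any ligand was known. RORs bind DNA as monomers at a single half-site, AGGTCA, preceded by an A- and T-rich stretch, and generally activate transcription. In the circadian clock they act on the same elements as the REV-ERB repressors. COUP-TFs bind repeats of the same half-site as dimers, often repress, and are known for roles in vein identity, mesenchyme, the nervous system and, in the case of Nr2f1, the development of the cochlea.

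The otic vesicle is the epithelial primordium of the inner ear. It was microdissected at embryonic day 11.5 from 2 groups of embryos with 3 arrays each. The Mest-KO group consisted of T-Cre conditional Tbx1 knockouts, and the control group of T-Cre conditional Tbx1 heterozygotes. The labels thus name T-Cre for both groups, but they do not give the Tbx1 alleles. Whether Tbx1 was intact outside the T-Cre cells is therefore not known for either group. T-Cre uses regulatory sequence of the T (brachyury) gene and is active in early mesoderm, so the knockout was aimed at tissue around the vesicle. Every array held pooled RNA from both ears of 3 embryos, and the labels name no strain and no sex. The study asked how the vesicle differs when Tbx1 is lost from that mesoderm.

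All 6 arrays had a trimmed mean intensity of 500, and their medians ran from 62.1 to 91.0, with the highest on Mest-KO 3. The number of arrays limits the precision. Tbx1 itself was read by 1 probe set with a log2 difference of -0.03 (SE 0.138), and it checks no label, since the deletion was directed at other cells. Epithelial markers were bright on every array, while 6 of 10 endothelial markers, Cdh5 and Pecam1 among them, lay below the filter on dim probe sets. One pool in each group held a single sex: Xist, transcribed from the inactive X, had an intensity of 16.1 in Mest-KO 1, and the Y-linked Eif2s3y had 12.1 in control 2. Intensities are quoted as deposited. Differences are Mest-KO minus control in log2 units after quantile normalization, with the standard error (SE) of the limma fit and n = 3 arrays per group. A probe set counts as above the filter when its mean lay above the 40th percentile, an intensity of 34.4.

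Rorb, the ROR gene known from retina, cortex and spinal cord, lay lower in Mest-KO at each of its 3 probe sets, by -1.78, -1.36 and -1.16. RefSeq places 2 start sites of Rorb 110079 bases apart on chromosome 19, and the files do not tie any probe set to either. Both stretches of 250 bases before the start are shown because the probe sets disagree in how they vary among the control pools. They run 5′ to 3′ on the minus strand of GRCm38.p6, with CpG dinucleotides in capitals.
Rorb, upstream start, chr19:19111197-19111446: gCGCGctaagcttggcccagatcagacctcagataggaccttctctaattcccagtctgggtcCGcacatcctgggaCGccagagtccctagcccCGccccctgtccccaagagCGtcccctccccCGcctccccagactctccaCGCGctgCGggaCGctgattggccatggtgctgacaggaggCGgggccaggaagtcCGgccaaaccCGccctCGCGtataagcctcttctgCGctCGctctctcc
Rorb, downstream start, chr19:19001118-19001367: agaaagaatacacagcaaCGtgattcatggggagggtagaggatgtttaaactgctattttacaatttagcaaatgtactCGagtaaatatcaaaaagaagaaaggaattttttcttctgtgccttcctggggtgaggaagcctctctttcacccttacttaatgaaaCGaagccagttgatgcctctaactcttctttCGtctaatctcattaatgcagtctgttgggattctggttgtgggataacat
The first window had 18 CpG dinucleotides and 66.0% G and C, and the second had 4 and 39.2%. Over the 32817 windows in RefSeq's table the medians were 6 and 52.4%. The half-site AGGTCA, searched on both strands from 250 bases before to 50 after each start, had no match in any of the 7 windows of the 5 member genes, and 16.3% of all windows hold one.

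At the Rorb probe set 1425162_at, intensities were 48.0, 62.5 and 80.2 in Mest-KO and 198.0, 198.3 and 198.7 in control. The groups were thus far apart, and the control pools were almost equal. The means were 63.6 ± 16.1 (SD, n = 3) and 198 ± 0.314 (SD, n = 3), and on the normalized scale control was 3.43-fold higher (log2 difference -1.78, SE 0.129). The spread of the control values, 0.00456 in log2 units, was the narrowest of 3986 probe sets with a mean level within 0.5 of this one, whose median spread was 0.516. After quantile normalization the control spread was 0.118, and 169 of the 3986 were as narrow or narrower.

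At 1439862_at the Mest-KO pools had 49.3, 99.6 and 105.0, and the controls 224.4, 267.4 and 126.9. The groups did not overlap, but control 3 stood closer to Mest-KO 2 and 3 than to the other controls. The log2 difference was -1.36 (SE 0.390), with means of 84.6 ± 30.7 (SD) and 206 ± 72.0 (SD).

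At 1455799_at the values were 51.3, 39.2 and 79.0 in Mest-KO and 159.0, 144.2 and 61.8 in control. Control 3 was again the low one, and as deposited it lay below Mest-KO 3. The log2 difference was -1.16 (SE 0.425). After quantile normalization the groups were separate by a small margin, with Mest-KO 3 at a log2 level of 5.89 and control 3 at 5.96.

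The 3 probe sets of Rorb therefore agreed in sign and not in the order of the control pools. Control 3 was level with the other controls at 1425162_at and was the lowest control at both others. Pearson's r over the 6 arrays, given as a description, was 0.88 between 1425162_at and 1439862_at, 0.76 between 1425162_at and 1455799_at, and 0.85 between the remaining pair. After subtraction of each group's mean the same values were 0.72, -0.11 and 0.59. Without control 3 the differences of 1439862_at and 1455799_at were -1.69 and -1.59. In the 4 pools of mixed sex they were -0.83 and -0.96, with -1.61 at 1425162_at. In bulk RNA, fewer cells that express a gene and less RNA per cell cannot be told apart.

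**Figure D1:**
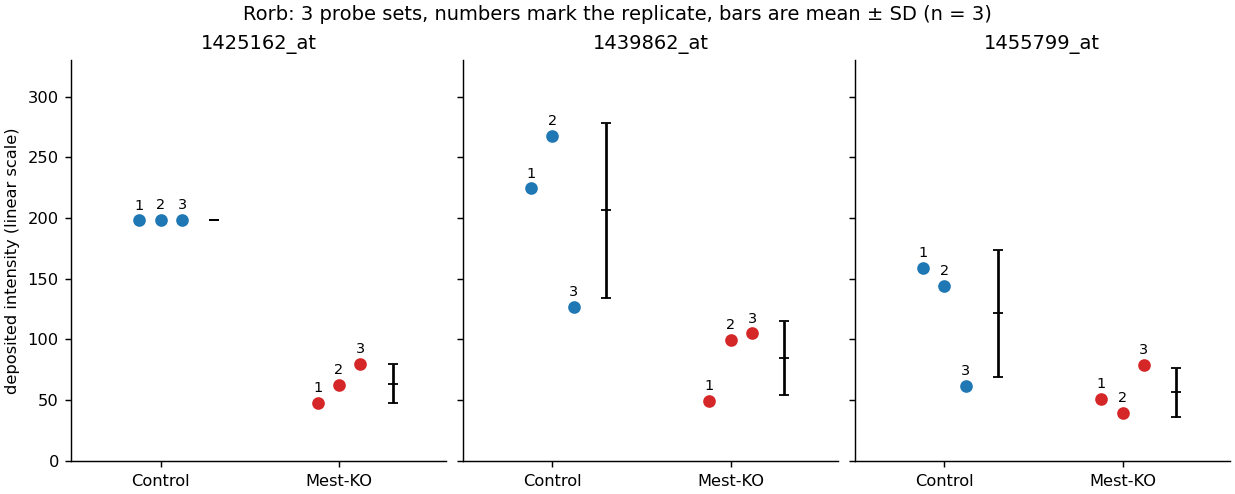
Deposited intensity (linear axis from 0) of the 3 Rorb probe sets in control (blue) and Mest-KO (red) pools; numbers mark the replicate and bars give mean ± SD (n = 3). The controls sit at 198.0 to 198.7 in the first panel, while control 3 is the lowest control in the other panels, at 126.9 and 61.8.

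Rora, the ROR gene whose loss causes the cerebellar staggerer phenotype, was dim throughout. The probe sets of Rorb had mean log2 levels of 6.27 to 6.96, no brighter than those of Rora above the filter, at 5.91 to 6.96. Of the 9 probe sets of Rora 4 were above the filter, with intensities from 43.7 to 183.0. Their log2 differences ran from -0.16 to 0.40, and those of the 5 dim ones from -1.04 to 0.64.

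The brightest on average was 1436325_at, with 110.9, 183.0 and 155.9 in Mest-KO and 100.4, 101.4 and 110.7 in control. Mest-KO 2 and 3 stood above every control, and Mest-KO 1 was level with control 3. The groups thus did not overlap, by the smallest of margins, and the log2 difference was 0.40 (SE 0.206). Without Mest-KO 2 it was 0.22.

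A neighbouring probe set designed from the same sequence, 1436326_at, had 94.1, 132.2 and 144.3 in Mest-KO and 84.6, 122.9 and 130.8 in control, a log2 difference of 0.04 (SE 0.248). Its groups overlapped almost completely. Rora at 1424034_at gave 0.14 (SE 0.212) and at 1455165_at -0.16 (SE 0.289), with overlap in both. The sign turned under at least 1 alternative setting for these 3 probe sets, and it was kept under all 14 for 1436325_at. The trend and robust options of limma and the replicate block, which are among the 14, cannot change a difference. The dim probe sets 1420583_a_at, 1441085_at, 1458129_at, 1458145_at and 1424035_at never exceeded an intensity of 54.1, and their groups overlapped.

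Nr2f2 (COUP-TFII), which is needed for vein identity and is widely expressed in embryonic mesenchyme, lay lower in Mest-KO at its 3 brightest probe sets. The one with the highest intensity, 1416158_at, had 3608, 4323 and 3821 in Mest-KO and 4362, 4583 and 4423 in control. Every control stood above every Mest-KO pool, but control 1 exceeded Mest-KO 2 by little. The log2 difference was -0.16 (SE 0.119), a 1.12-fold higher mean in control.

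At 1416160_at the values were 663.3, 736.9 and 598.7 against 807.6, 875.1 and 876.6, a log2 difference of -0.37 (SE 0.135). At 1416159_at they were 319.1, 346.6 and 376.4 against 453.0, 452.2 and 558.5, a difference of -0.52 (SE 0.149). In both the groups were clearly apart. These 3 probe sets were designed from 1 sequence, so they are not independent of each other. Their differences kept their sign under all 14 alternative settings, from -0.34 to -0.09, from -0.51 to -0.31 and from -0.64 to -0.41. Those settings include the trend, robust and block options, which could not change a difference.

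The other 3 probe sets of Nr2f2 overlapped between the groups. The log2 difference was -0.17 (SE 0.277) at 1436475_at, -0.01 (SE 0.597) at 1444229_at, and 0.73 (SE 0.783) at 1431237_at, which was below the filter. Control 2 was the low array at the last of these, with an intensity of 6.6 against 34.0 and 42.7 in the other controls, and without it the difference was -0.05. It was also the low control at 1444229_at, with 18.1 against 70.0 and 76.8. Without control 2 that difference was -0.63, without control 3 it was 0.33, and in the 4 pools of mixed sex it was -0.86. The 3 brightest probe sets correlated over the 6 arrays with r from 0.72 to 0.83, and with r from 0.17 to 0.53 after subtraction of the group means.

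Nr2f1 (COUP-TFI), whose loss in mice is known to disturb cochlear and neural development, was bright and nearly level. Its single probe set, 1418157_at, had 6679, 6912 and 6050 in Mest-KO and 6537, 6494 and 6759 in control. The groups overlapped, and as deposited the highest and the lowest value were both in Mest-KO. After quantile normalization the lowest was control 2, at a log2 level of 12.61 against 12.62 in Mest-KO 3. The log2 difference was 0.02 (SE 0.110), and the 6 arrays spanned 0.14 log2 units.

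Nr2f6 (EAR2), the most divergent COUP-TF, was also bright. At 1460647_a_at it had 7526, 8325 and 8392 in Mest-KO and 7077, 8895 and 8950 in control, a log2 difference of 0.02 (SE 0.133). At 1460648_at it had 537.4, 578.7 and 660.8 against 572.8, 587.9 and 610.8, a difference of -0.02 (SE 0.137). The groups overlapped at both. With median centring, which set the median difference of all probe sets at -0.11 instead of -0.01, Nr2f1 stood at -0.16 and Nr2f6 at -0.18 at its brighter probe set.

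**Figure D2:**
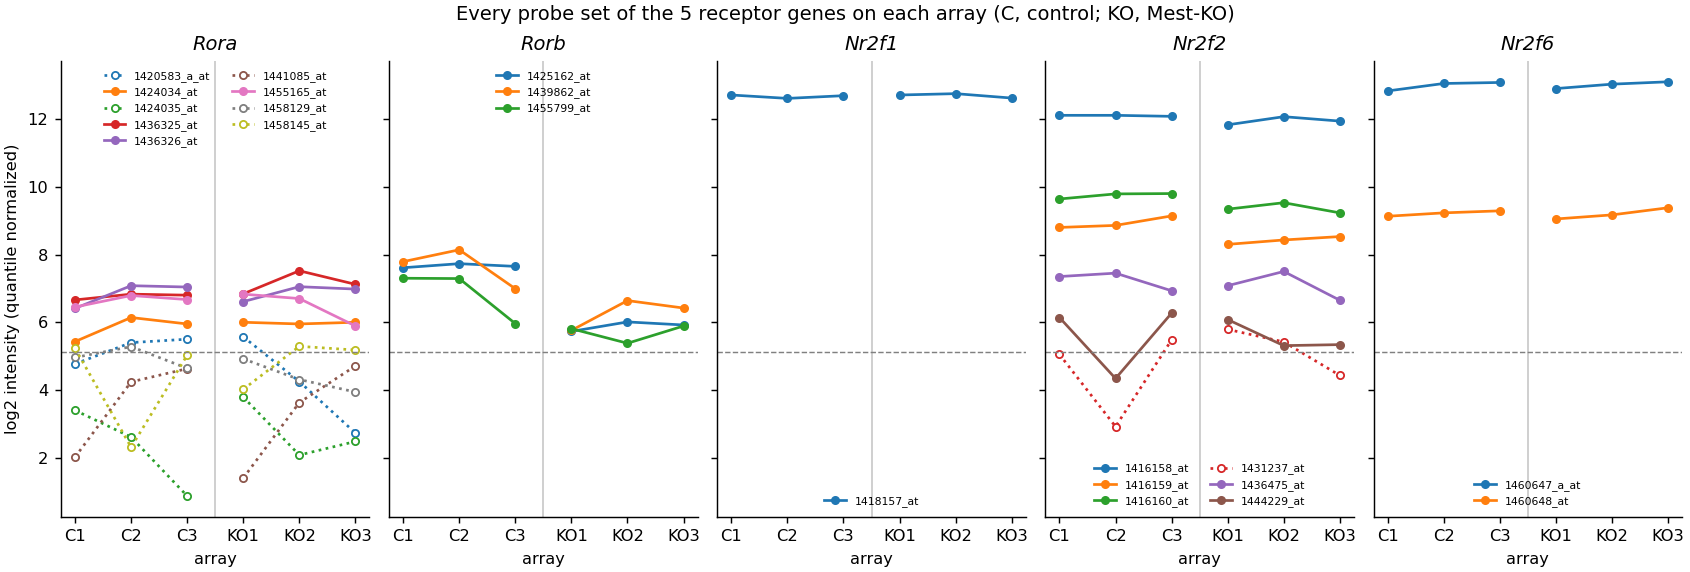
Quantile-normalized log2 intensity of all 21 probe sets on the 3 control (C) and 3 Mest-KO (KO) arrays, 1 panel per gene; lines join the values of 1 probe set within a group, open symbols are probe sets below the filter, and the dashed line is the filter. Rorb is lower on the KO arrays at all 3 probe sets, while Nr2f1 and both probe sets of Nr2f6 run level.

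Of the 21 probe sets, 15 passed the filter, and 13 had a negative and 8 a positive difference. The groups did not overlap at 7 probe sets, 6 of them lower in Mest-KO (3 of Rorb, 3 of Nr2f2) and 1 higher (Rora). Over all 45037 probe sets 8.85% did not overlap, 4.68% lower and 4.17% higher. The members were chosen with this contrast known and share transcripts, so nothing is read from the count. It was 6 on the deposited scale, where 1455799_at of Rorb overlapped and 8.68% of all probe sets did not.

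**Figure D3:**
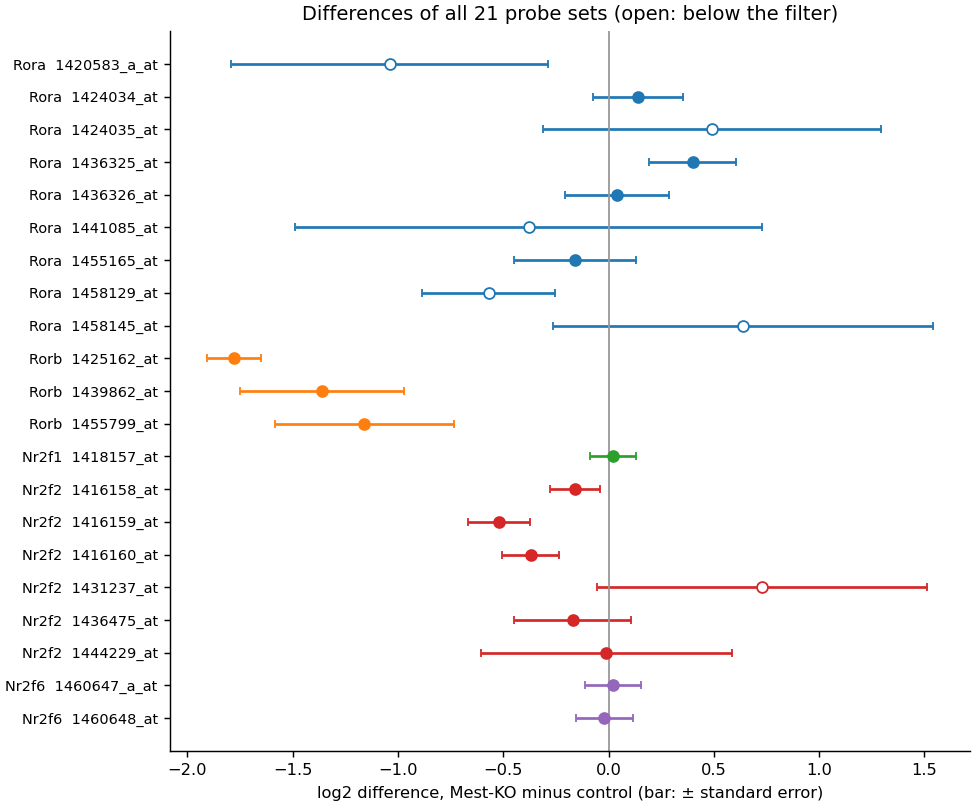
Log2 difference, Mest-KO minus control, with ± 1 SE of the limma fit for each of the 21 probe sets; open symbols lie below the filter. The 3 Rorb probe sets lie between -1.78 and -1.16, and the probe sets of Rora spread to both sides of 0.

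The genes whose pattern over the 6 arrays was most like that of a member differed among the probe sets of Rorb too. By Pearson's r, over 12461 genes and as a description, 1425162_at was most like Itih5 (0.988), Tbc1d8b (0.988) and Plet1 (0.985). After subtraction of the group means these were 0.10, -0.15 and 0.53, so the likeness lay in the difference between the groups. The genes nearest to 1439862_at were 5530601H04Rik (0.994), Tfb1m (0.977) and Tmem100 (0.976), and those nearest to 1455799_at were Psmb6 (0.985), Gmppb (0.983) and Zfp64 (0.980). For these 6 genes r stayed at 0.91 or more within groups. The 3 probe sets of Rorb thus had no gene in common among their nearest 3.

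For the other members, Rora at 1436325_at was most like Prr12 (0.997), Bach1 (0.990) and Jun (0.989), and Nr2f2 at 1416158_at like Cbln1 (0.992), Adss (0.980) and Synj2 (0.979). Nr2f1 was most like Elk4 (0.983), Rfxank (0.983) and Ccdc157 (0.980), and Nr2f6 at 1460647_a_at like Fez2 (0.984), 2310022A10Rik (0.984) and Gtf3c4 (0.981). With 6 arrays such values are common. From 73 genes (for 1439862_at) to 257 genes (for Rora) had an r over 0.9.

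Over all genes, the members included, limma called 0 of 12462 genes at an adjusted p under 0.05 (0%), with 641 at an unadjusted p under 0.05, and 13 genes (0.104%) with the trend option, 12 of them lower. By single probe set it called 0 of 27022, with 1076 at an unadjusted p under 0.05, and 14 (0.0518%) with the trend. In each of the 5 lists that follow, 0 genes passed in either direction, with or without the trend.

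Other nuclear receptors were represented by 39 genes, of which 21 passed the filter. Among the 18 that did not were Esr1, Thrb, Pparg and Hnf4a. Of the 21, 9 lay higher and 12 lower in Mest-KO, with a median log2 difference of -0.024 against -0.003 over all genes. The unadjusted p was under 0.05 for 2 of them, and for 3 with the trend. Rxrg, a retinoid X receptor gene, had 143.9, 154.7 and 199.4 in Mest-KO and 315.1, 244.9 and 211.5 in control, a log2 difference of -0.67 (SE 0.165, limma adjusted p = 0.777). Esrrb, an estrogen-related receptor gene, had 71.8, 92.5 and 49.2 against 121.7, 126.4 and 124.0, a difference of -1.07 (SE 0.381, adjusted p = 0.909). Its other probe sets, below the filter, gave 0.41 and -1.15. The groups of Rxrg and Esrrb did not overlap, nor did those of Nr4a2, at 0.30 (SE 0.129), which makes 14.3% of the list against 10.6% of all genes. The other probe sets of Nr4a2 above the filter gave -0.04, 0.48 and -0.18, and its dim ones 0.66 and 1.76. The vitamin D receptor gene Vdr stood at -0.64 (SE 0.362), with 0.41 at a dim probe set, Rxra at -0.08, with -0.46 and 1.65 at dim ones, and the retinoic acid receptor gene Rarb at -0.09.

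**Figure D4:**
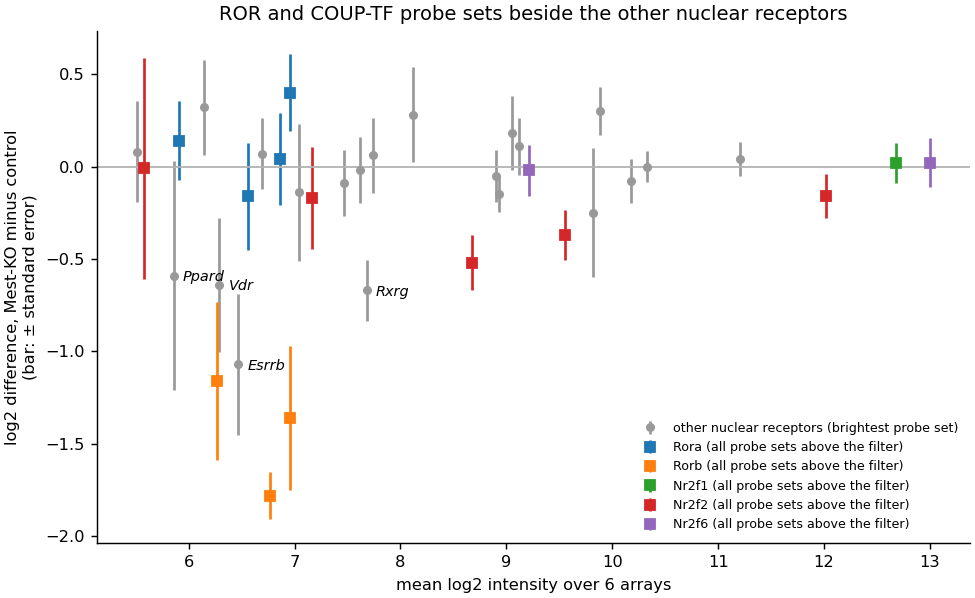
Log2 difference, Mest-KO minus control (± 1 SE), against mean log2 intensity for the probe sets of the ROR and COUP-TF genes above the filter (coloured squares) and for 21 other nuclear receptor genes (grey, brightest probe set). The SE of the squares is from the fit without the filter and that of the grey points from the gene fit, so their bars are not directly comparable. For Rxrg the SE was 0.192 without the filter and 0.165 in the gene fit. Rorb lies lowest at -1.16 to -1.78, next to Esrrb at -1.07. Nr2f1 and both probe sets of Nr2f6 lie within 0.02 of 0. Nr2f1 and the brighter probe set of Nr2f6 are among the brightest, and the other probe set of Nr2f6 has a mean level of 9.21.

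RORs and REV-ERBs meet in the clock loop, where both act on Arntl (also called Bmal1), the partner of Clock. Arntl had 331.4, 301.9 and 323.0 in Mest-KO and 440.0, 395.3 and 411.2 in control. All 3 controls stood above all Mest-KO pools, and the log2 difference was -0.42 (SE 0.0797). It did not pass (limma adjusted p = 0.549, and 0.548 with the trend). A second probe set, below the filter, gave 0.05. Npas2, a relative of Clock, stood at -0.46 (SE 0.165), with 0.18 at a dim second probe set. The period gene Per2 stood at -0.68 (SE 0.254), with 0.27 and -1.77 at its dim ones. Npas2 had 35.2, 53.8 and 60.6 in Mest-KO and 56.4, 51.9 and 72.2 in control. Per2 had 45.2, 53.0 and 45.7 against 80.3, 50.8 and 71.5. For both genes the groups overlapped as deposited and were apart only after quantile normalization. The REV-ERB genes Nr1d1 and Nr1d2 differed by 0.08 (SE 0.273) and 0.11 (SE 0.154), with overlap, and a dim probe set of Nr1d2 gave 0.21. Ciart, a clock repressor gene, stood at 0.32 (SE 0.188). Of 18 clock genes above the filter 3 had an unadjusted p under 0.05, all lower, and 1 with the trend, and the list median was 0.038. Over all genes 641 of 12462 had an unadjusted p under 0.05 in limma. The groups did not overlap for 4 of the 18 (22.2%), against 10.6% of all genes. This list and those below were chosen with earlier results of these data known, so nothing is read from such shares.

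The list of genes known downstream of RORs or beside them shares Arntl, Npas2, Nr1d1 and Nr1d2 with the clock list. Of its 11 genes above the filter 3 had an unadjusted p under 0.05, all lower, and 2 with the trend, and the median was 0.016. The groups did not overlap for 3 of the 11 (27.3%), against 10.6% of all genes. Pcp4, a calmodulin-binding protein gene of Purkinje cells, had 137.8, 152.5 and 167.0 in Mest-KO and 259.5, 243.6 and 197.5 in control. The groups did not overlap, and the log2 difference was -0.68 (SE 0.126, limma adjusted p = 0.549). Cyp7b1, a steroid hydroxylase gene, differed by 0.19 (SE 0.116), with -0.06 at another probe set above the filter and 0.15 at a dim one.

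Half-sites near the starts of the clock and ROR genes named here are shown because RORs and COUP-TFs share this half-site. The A- and T-rich stretch that precedes it in ROR sites was not part of the search. AGGTCA or its complement, in capitals, occurred near the starts of Arntl, Nr1d2 and Pcp4, in GRCm38.p6 and written on the strand of the gene.
Arntl, 32 bases into the transcript, chr7:113207534-113207555, plus strand: cagaaagtAGGTCAgggacgga
Nr1d2, 77 bases before the start, chr14:18239170-18239191, minus strand: ggaagaagAGGTCAggaccgct
Pcp4, 164 bases before the start, chr16:96467434-96467455, plus strand: tgctattgTGACCTgatcagcc
Of the 18 genes named from the 5 lists by their p, 13 had a window in the table, and 3 of these (Arntl, Pcp4 and Rxrg) held a match, against 18.1% of all 26994 genes. A match describes letters and no binding was measured.

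Among genes known to act downstream of COUP-TFs or beside them, 17 of 20 passed the filter, and 8 lay higher and 9 lower, with a median of -0.078. The unadjusted p was under 0.05 for 2, both lower, and for 3 with the trend. The groups did not overlap for 4 of the 17 (23.5%), against 10.6% of all genes. Efnb2, the ephrin ligand that marks arteries, had 4104, 3772 and 3426 in Mest-KO and 4861, 4768 and 4887 in control. The groups were apart, with a log2 difference of -0.33 (SE 0.0935, limma adjusted p = 0.836), and its other 3 probe sets gave -0.22, -0.29 and -0.56. Angpt1, the ligand of the endothelial receptor Tek, differed by -0.65 (SE 0.191, adjusted p = 0.878), with -2.29 at a dim probe set. The Notch target Hey1 stood at -0.17 (SE 0.0952) and Otx2 at -0.27 (SE 0.141). Fabp7, a fatty acid binding protein gene of glia, had 1619 in control 1 and from 191.1 to 395.6 on the other arrays.

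Cofactors of nuclear receptors had 24 genes above the filter, 17 higher and 7 lower, with a median of 0.040 and 0 with an unadjusted p under 0.05. The groups did not overlap for 2 of the 24 (8.33%), against 10.6% of all genes. Bcl11a, also named CTIP1 for its binding to COUP-TFs, differed by 0.23 (SE 0.118), and its other probe sets ran from -0.24 to 0.53. Zfpm2 (FOG2), another COUP-TFII partner, differed by -0.28 (SE 0.292), with 0.31 at a dim probe set. The coactivator gene Ppargc1b stood at -0.85 (SE 0.387) and Ncoa7 at 0.17 (SE 0.0931), with 0.19 at its other probe set. Tbl1xr1, of the NCoR complex, stood at 0.15 (SE 0.0794). Its other probe sets above the filter gave 0.05, -0.27, -0.03 and 0.20, and a dim one -0.47.

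COUP-TFs are expressed in mesenchyme and veins as well as in epithelium, so the marker lists of other cell types stand beside their values. The mean log2 level of 14 mesenchyme markers, 12 of them above the filter, ran from 6.93 to 8.43 in Mest-KO and from 6.58 to 7.93 in control, a span of 1.85 over the 6 arrays. Of the 12, 10 lay higher in Mest-KO, with a median log2 difference of 0.427, and limma called 0 of them, with 2 at an unadjusted p under 0.05, 1 in each direction. Over the same arrays Nr2f1 spanned 0.14, Nr2f2 at 1416158_at 0.29 and Nr2f6 at 1460647_a_at 0.27. The mesenchymal transcription factor genes Prrx1 and Twist1 were highest in Mest-KO 2, at 986.3 and 720.3, and lowest in control 3, at 170.5 and 149.6. Nr2f2 at 1416158_at had 4323 in Mest-KO 2, its highest Mest-KO value, and 4423 in control 3, the array lowest in mesenchyme markers. At 1416159_at and 1416160_at control 3 was the highest of the 6 arrays, at 558.5 and 876.6. The highest Mest-KO value was 376.4 in Mest-KO 3 at 1416159_at and 736.9 in Mest-KO 2 at 1416160_at. Whether mesenchyme content bears on the values of Nr2f2 was not tested.

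The mean of the 12 epithelial markers lay between 11.73 and 11.85 on all arrays, with 2 of 12 higher in Mest-KO. Endothelial markers ran from 4.72 to 5.71 in Mest-KO and from 4.46 to 4.88 in control, with all 4 above the filter higher in Mest-KO (median 0.23). Those of neural crest and glia ran from 8.01 to 9.07 and from 7.86 to 8.63, with all 4 above the filter higher in Mest-KO (median 0.10). Hindbrain markers ran from 3.67 to 4.75 and from 3.48 to 5.12, with 1 of the 3 above the filter higher. Neuronal markers ran from 8.05 to 8.61 and from 8.09 to 8.40, with 5 of 11 higher. Macrophage markers ran from 3.70 to 5.39 and from 4.04 to 6.02, with all 3 above the filter lower in Mest-KO (median -0.653). Red cell markers ran from 8.39 to 8.78 and from 8.23 to 8.53, with 2 of the 5 above the filter higher. The list means take in markers below the filter. Those of hindbrain (3 of 8 above it), macrophages (3 of 7) and endothelium (4 of 10) therefore rest mostly on dim probe sets. Each of these ranges overlapped between the groups, and the epithelial means of Mest-KO lay on both sides of the controls. The part of these cell types in the values of Rorb, Nr2f2 and Rora was not tested.

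**Figure D5:**
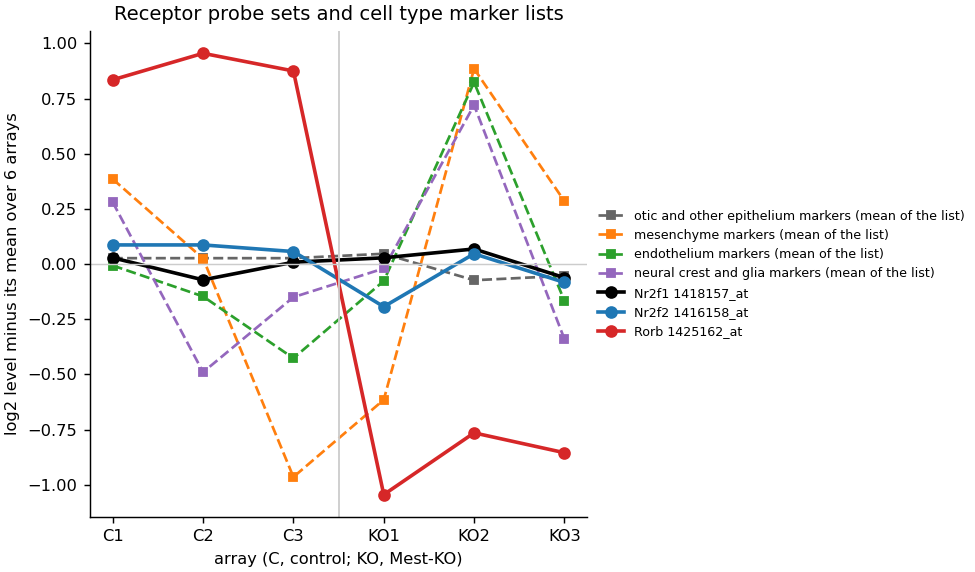
Log2 level minus its own mean over the 6 arrays for 3 receptor probe sets (solid) and the means of 4 marker lists (dashed), on control (C) and Mest-KO (KO) arrays. The mesenchyme markers span 1.85 and peak on KO2, while Nr2f1 spans 0.14 and Rorb at 1425162_at separates the groups.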

How the data were processed

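RNA of 6 pools was labelled from 300 ng and hybridised to Affymetrix arrays after dispase treatment for 30 min at 37 °C, per the labels' protocols. Per the submitters' processing notes, the authors used Affymetrix Expression Console 1.1. The deposited table gives linear intensities per probe set, with a common trimmed mean (2% from each end). Probe summarisation and background correction: not given in the sources used here. Scaling alone leaves the shapes of the arrays' distributions unequal, and no detection calls were used. Nothing says whether pools came from separate litters, so p-values measure the spread between these pools.

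A floor of 1 was applied, values were log2 transformed and 45037 non-control probe sets were quantile normalized. limma 3.58.1 in R 4.3.3 (lmFit, eBayes without trend) compared the groups, with Benjamini-Hochberg adjustment. Probe sets, or genes read from their brightest probe set, were tested when their mean lay above the 40th percentile. The standard errors of the member probe sets come from a fit without that filter. Symbols came from the platform annotation (34945 probe sets with 1 symbol, 932 with several, 9160 unnamed), updated through RefSeq for 34741. Sequences are from RefSeq's promoter table (GRCm38.p6), which held all 5 members. The rule for named genes took all member probe sets, Tbx1, the 4 genes of smallest p in each of 5 lists, fixed receptor and marker genes, and the 3 genes most like each member. Esr1, Thrb, Pparg, Hnf4a and Pecam1 are examples chosen after their values were seen. Members and lists were chosen with earlier results of these data known. The fit was tested on simulated data. Same-numbered pools did not deviate together (r = -0.041, -0.007 and 0.033). Figures used matplotlib 3.10.9.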

Additional observations from a re-analysis of the deposited data

How the results depend on the processing

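Alternatives were other normalizations, floors, filters and variance priors, array weights, rules for genes with several probe sets, each array left out, and the 4 pools of mixed sex alone. The count of probe sets without overlap was repeated under settings chosen after seeing the data and was 6 or 7 with all 6 arrays (6.83% to 8.85% of all probe sets), 7 to 9 with 1 array left out (16.7% to 21.7%) and 10 in the 4 pools (32.8%). The count of called probe sets, 0 in the fit as reported, was 15 with median centring, 14 with the trend, 17 when robust fitting was added to it, 1 without a filter, 9 with a filter at the 60th percentile and 1 at an adjusted p under 0.10. The count of genes, also 0, was 25, 13 and 16 under the first 3 of these, 7 with the higher filter, 7 at 0.10 and 1 with the most variable probe set. With the replicate number as a block both counts were 0, as they were with each array left out, and the block changed no call; the pools share only a number. The 5 lists had 0 called genes under every setting. Rorb was among the 25 genes called with median centring, and it was the 1 gene called with the most variable probe set. That rule favours probe sets whose groups differ, because the group difference adds to the variance. Median centring left the median difference of all probe sets at -0.105. The gene fit as reported read Rorb from 1439862_at, its brightest probe set. The members were chosen with this contrast known, so nothing is read from these calls. Rorb at 1425162_at moved to -1.61 and at 1439862_at to -0.83 in the 4 pools of mixed sex. With median centring Nr2f1 moved to -0.16, Nr2f2 at 1416158_at to -0.34 and Nr2f6 at 1460647_a_at to -0.18. The causes were not tested. Of the 21 member probe sets 12 took the other sign under at least 1 of 14 settings, and none of Rorb did. Among these settings the trend, robust fitting and the replicate block leave a difference unchanged by construction. Low intensities limit what can be read of Rora, and the same holds for Rorb.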
